A study of Mus musculus with 4 samples.

Results

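The transcriptional regulators Pax5, Ebf1, Bach2, Bcl6, Irf4, Irf8, Prdm1, Pou2af1, Spib and Runx2, which act in B cells, plasma cells and plasmacytoid dendritic cells, were followed across the cell classes of mouse liver tumour tissue. These 10 genes were chosen by name, and all 10 were among the 17813 genes of the table. The series compared 2 samples from Miz1_delta_hep mice with 2 samples from Miz1F/F mice. By the label, Miz1_delta_hep mice lack Miz1 in hepatocytes; the Cre driver is not given in the sources used here, and Miz1F/F mice carry the floxed allele. All 4 were C57BL/6 mice, had received 25 mg/kg of the carcinogen DEN intraperitoneally at week 2 after birth and then weekly CCl4 at 0.5 ml/kg in corn oil, and were killed at 5 months of age. Livers were digested, and single-cell RNA was captured with 10x Genomics droplets.

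The table held 24802 cells and 65920312 unique molecular identifiers (UMIs, counts of distinct captured RNA molecules). The cells fell into 4 sets by the suffix of their barcode (barcode sets 1 to 4), and no source used here maps a suffix to a mouse. The genotypes therefore could not be compared, neither could Miz1 be checked by genotype, and a barcode set is used only as a separate measurement of every cell class. The sets held 2574 to 11179 cells and 9093921 to 35033778 UMIs, with a median of 906 to 2648 UMIs per cell. A total of 373 barcode sequences occurred in more than 1 set.

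Pax5 and Ebf1 are the factors that commit lymphoid progenitors to the B cell fate and keep B cell genes active. Bach2 and Bcl6 hold B cells back from becoming antibody-secreting cells, while Prdm1, which encodes Blimp-1, and Irf4 drive that step and shut the B cell programme down. Pou2af1 encodes a coactivator of the octamer-binding factors in B and plasma cells. Irf8, Spib and Runx2 act in plasmacytoid dendritic cells, the main producers of type I interferon, and Irf8 and Irf4 are also used by different kinds of conventional dendritic cells.

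The promoters of the 6 genes that set B cells or plasmacytoid dendritic cells apart are shown because these genes moved in blocks across the classes. Each window runs from 250 bases before to 50 bases after a RefSeq start site (GRCm38.p6), 5′ to 3′ on the gene's strand. Capitals mark matches to the motifs searched on both strands, and a match describes letters in a window, not a bound site. RefSeq held 13 such windows for the 10 genes. Of the genes not shown, Pou2af1 lies on chromosome 9, Prdm1 on chromosome 10, Irf4 on chromosome 13 and Bcl6 on chromosome 16.
Runx2, chr17:44814578-44814877, minus strand: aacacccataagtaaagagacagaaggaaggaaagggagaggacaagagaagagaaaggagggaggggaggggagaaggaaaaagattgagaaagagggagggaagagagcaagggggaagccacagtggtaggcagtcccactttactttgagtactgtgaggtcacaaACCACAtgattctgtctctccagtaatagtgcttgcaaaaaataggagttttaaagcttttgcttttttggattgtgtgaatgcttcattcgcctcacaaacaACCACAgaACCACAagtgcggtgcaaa
Spib, chr7:44532022-44532321, minus strand: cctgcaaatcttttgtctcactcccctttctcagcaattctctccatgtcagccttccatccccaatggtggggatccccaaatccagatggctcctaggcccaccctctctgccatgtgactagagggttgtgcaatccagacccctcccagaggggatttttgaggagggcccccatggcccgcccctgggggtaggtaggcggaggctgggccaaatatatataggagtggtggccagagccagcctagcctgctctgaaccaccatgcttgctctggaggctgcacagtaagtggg
Irf8, chr8:120736108-120736407, plus strand: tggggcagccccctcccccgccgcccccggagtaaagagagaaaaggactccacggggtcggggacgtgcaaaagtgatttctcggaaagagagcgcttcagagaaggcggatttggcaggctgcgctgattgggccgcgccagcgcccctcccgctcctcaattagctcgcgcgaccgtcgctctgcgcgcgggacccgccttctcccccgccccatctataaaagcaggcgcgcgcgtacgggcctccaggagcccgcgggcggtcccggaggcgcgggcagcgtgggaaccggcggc
Ebf1, chr11:44617850-44618149, plus strand: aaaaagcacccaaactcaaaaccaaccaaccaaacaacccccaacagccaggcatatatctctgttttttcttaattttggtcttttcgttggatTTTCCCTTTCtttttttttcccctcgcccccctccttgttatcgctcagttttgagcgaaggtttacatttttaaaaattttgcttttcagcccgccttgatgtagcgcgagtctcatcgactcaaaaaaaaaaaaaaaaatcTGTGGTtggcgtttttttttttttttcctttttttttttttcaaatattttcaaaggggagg
Bach2, chr4:32417185-32417484, plus strand: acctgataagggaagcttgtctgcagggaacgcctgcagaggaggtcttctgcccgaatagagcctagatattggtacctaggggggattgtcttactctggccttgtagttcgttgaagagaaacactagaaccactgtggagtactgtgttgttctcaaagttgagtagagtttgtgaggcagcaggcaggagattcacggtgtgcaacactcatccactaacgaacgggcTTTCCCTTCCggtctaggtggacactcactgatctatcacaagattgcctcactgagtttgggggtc
Pax5, chr4:44710645-44710944, minus strand: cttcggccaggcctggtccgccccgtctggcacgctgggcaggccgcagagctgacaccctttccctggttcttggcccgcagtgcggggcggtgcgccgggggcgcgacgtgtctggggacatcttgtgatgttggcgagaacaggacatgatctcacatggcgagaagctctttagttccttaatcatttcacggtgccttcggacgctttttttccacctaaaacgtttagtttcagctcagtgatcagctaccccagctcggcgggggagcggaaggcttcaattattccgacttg
The Runx2 window held the RUNX site TGTGGT 3 times, with first bases at positions -80, 24 and 32, counted from 1 at the start base. That site occurred in 16.8% of all 32851 mouse promoter windows. Bach2 held the ETS-IRF composite (GGAA, any 2 bases, GAAA) on its minus strand beginning 17 bases before the start, and 2.72% of all windows held that motif. The start site of this Bach2 window lies inside the gene, which begins at position 32238804 of chromosome 4. The Ebf1 window shown also lies inside its gene, which begins at position 44617317 of chromosome 11. On the minus strand, Runx2 begins at position 44814797, so the start site of its window lies inside the gene. Pax5 begins at position 44710487, and its window lies wholly before the annotated gene. A Bcl6 window, not shown, held the composite on its plus strand beginning 28 bases before the start. This Ebf1 window held the IRF repeat (GAAA, any 2 bases, GAAA) on its minus strand beginning 155 bases before the start, a motif in 3.44% of windows, and 1 RUNX site. The composite and the repeat share their last bases, but no match here overlapped another. The octamer ATTTGCAT, the EBF palindrome (TCCC, any 2 bases, GGGA) and the PU.1/Spi-B core GAGGAAGT occurred in 1.74%, 0.904% and 3.2% of all windows, and in none of the 13 windows of these 10 genes.

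Cells were clustered with the 10 genes left out, and clusters were named from marker genes that include none of them, so each class name carries "-like". The naming gave 763 plasma cell-like, 978 plasmacytoid dendritic cell-like, 6762 B cell-like and 1167 conventional dendritic cell-like cells. The names were given by these marker lists, so the levels of the markers describe the classes and are no check of the names. CPM stands for UMIs per 1000000 UMIs of a cell. The 10 plasma cell markers summed to 44810 to 66090 CPM in plasma cell-like cells, against 651 to 1582 CPM in B cell-like cells. Much of that sum was Jchain, with a median of 49680 CPM in plasma cell-like cells. The 11 plasmacytoid markers summed to 12670 to 15990 CPM in plasmacytoid dendritic cell-like cells, against 509 to 805 CPM in conventional dendritic cell-like cells. The 8 conventional dendritic markers summed to 14790 to 34520 CPM in conventional dendritic cell-like cells. In B cell-like cells they summed to 8782 to 27260 CPM, so these ranges overlapped. B cell-like cells were held by different clusters in different sets, and each of these clusters came mostly from 1 set. Set 4 gave 3213 of 3395 cells of the largest, and set 2 gave 1683 of 1763 cells of the next. Set 3 gave 1123 of the 1604 cells of the last, which also held 408 cells of set 1. The conventional dendritic class was divided by markers into 277 type 1, 693 type 2 and 95 mature cells, with 102 cells in groups left without a name. B cell-like cells made up 27.3% of all cells, and hepatocyte-like cells 4.68%.

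A level is the mean over the cells of a class of each cell's UMIs of a gene scaled to CPM, taken in every set with at least 20 cells of the class. All 10 genes were detected, with 686 UMIs for Bcl6, the fewest, and 15983 for Ebf1, the most, over all cells. In each of the pairs of classes below, a gene was called when it was at least 2-fold higher or at least 2-fold lower in every set, on the scale log2(CPM + 10). Genes whose mean over both classes was under 20 CPM were left out. This pseudocount understates differences of low genes. Classes are cut from the same cells, so no p-values are given, and the range over sets stands for the error. Intervals on UMI sums are exact Poisson intervals at 95% and cover counting error only.

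**Figure D1:**
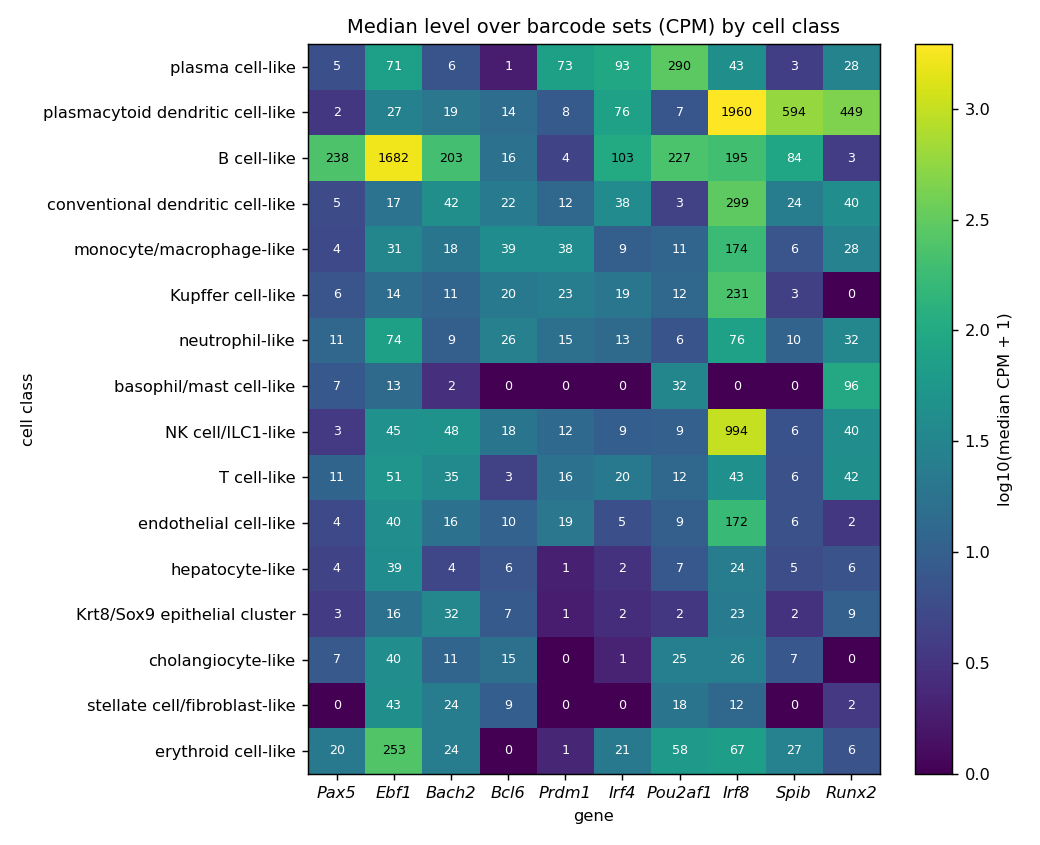
Median level over barcode sets in CPM (numbers in the cells; colour is log10 of the median plus 1) of the 10 genes (columns) in 16 cell classes (rows). Pax5, Ebf1 and Bach2 peak in the B cell-like row, and Irf8, Spib and Runx2 in the plasmacytoid row.

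Pax5, the B lineage commitment factor, was a B cell transcript in this tissue, and plasma cell-like cells held almost none of it. In sets 1 to 4 Pax5 was at 1.47, 5.00, 12.7 and 5.76 CPM in plasma cell-like cells, against 181, 295, 330.1 and 166 CPM in B cell-like cells. The lowest B cell-like set lay above the highest plasma cell-like set by an order of magnitude. The log2 ratio of plasma over B cell-like cells was -3.98 at the median, with a range from -4.35 to -3.48 over sets. B cell-like cells held 83.5% of all Pax5 UMIs. The next class in order was erythroid cell-like cells at 20.4 CPM, with a range from 0 to 88.6 CPM that overlapped those of all lower classes. Plasmacytoid dendritic cell-like cells had 12 Pax5 UMIs in 978 cells, which is 4.87 CPM with an interval from 2.52 to 8.51 CPM.

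Ebf1, the partner of Pax5 in B cell commitment, was the most abundant of the B cell group. It was at 28.1, 76.2, 91.9 and 65.2 CPM in plasma cell-like cells, against 2154, 1728, 1636 and 1543 CPM in B cell-like cells in sets 1 to 4. The groups did not overlap, and the median log2 ratio was -4.35 with a range from -5.83 to -4.01. B cell-like cells held 83.7% of its UMIs. The second class was again erythroid cell-like at 253 CPM with a range from 203 to 464 CPM, and it carried B cell markers that summed to 1046 to 1703 CPM, against 5246 to 9037 CPM in B cell-like cells. The part of those markers in the erythroid values was not tested. Stellate cell/fibroblast-like cells, a kind of cell in which Ebf1 is also known, had 4 Ebf1 UMIs in the only set with enough of them, which is 43.0 CPM and within the range of 0 to 45.9 CPM of hepatocyte-like cells.

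Bach2, a repressor that keeps B cells from becoming plasma cells, followed the same order at a lower level. It was at 0, 9.01, 16.3 and 3.18 CPM in plasma cell-like cells, against 86.6, 276, 349 and 129 CPM in B cell-like cells in sets 1 to 4. The median log2 ratio was -3.58 with a range from -3.91 to -3.27. Bach2 was less restricted than Pax5 and Ebf1: B cell-like cells held 56.9% of its UMIs. NK cell/ILC1-like cells followed at 47.9 CPM, conventional dendritic cell-like cells at 42.0 CPM and T cell-like cells at 35.2 CPM, and the ranges of these 3 classes over sets overlapped.

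Bcl6, the repressor that directs germinal centre B cells, was low in every class and did not peak in B cell-like cells. It was at 0, 0.939, 4.76 and 0.700 CPM in plasma cell-like cells, against 6.93, 24.8, 26.5 and 6.07 CPM in B cell-like cells. The pair fell under the filter on low values. Monocyte/macrophage-like cells had the highest median, 38.6 CPM with a range from 5.78 to 63.4 CPM, then neutrophil-like cells at 25.9 CPM and conventional dendritic cell-like cells at 22.3 CPM, and these ranges overlapped. Of 6762 B cell-like cells, 82 had a Bcl6 UMI.

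Prdm1, the master regulator of antibody secretion, was the single gene of the 10 that was called higher in plasma cell-like than in B cell-like cells. It was at 70.8, 115, 74.7 and 58.2 CPM in plasma cell-like cells, against 8.74, 2.59, 3.99 and 3.37 CPM in B cell-like cells in sets 1 to 4. Every plasma value lay above every B value, and the median log2 ratio was 2.47 with a range from 2.11 to 3.31. B cell-like cells had 32 Prdm1 UMIs, and 0.458% of them had at least 1. Of hepatocyte-like cells, in which these genes serve as a background, 0.603% had at least 1 Prdm1 UMI at a median of 1560 UMIs per cell, against 1164.5 UMIs in B cell-like cells. At an even 500 UMIs per cell the shares were 0.143% of B cell-like and 0.0564% of hepatocyte-like cells, so no order is read between them. Prdm1 was not confined to plasma cells: monocyte/macrophage-like cells had 38.4 CPM, with a range from 23.3 to 74.0 CPM that overlapped that of plasma cell-like cells. Kupffer cell-like cells had 23.1 CPM and endothelial cell-like cells 19.3 CPM. Plasma cell-like cells held 27.9% of Prdm1 UMIs, monocyte/macrophage-like cells 20.6% and endothelial cell-like cells 17.3%.

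Irf4, which acts in germinal centre entry, plasma cell differentiation and type 2 dendritic cells, did not separate plasma from B cell-like cells. It was at 145, 82.9, 102 and 43.0 CPM in plasma cell-like cells, against 57.8, 148.5, 222.7 and 57.0 CPM in B cell-like cells. The ratio changed sign between sets, at 1.19 in set 1 and -0.77, -1.05 and -0.34 in sets 2, 3 and 4. B cell-like cells had the highest median, 103 CPM, but without set 2 or without set 3 the plasma cell-like median was the highest. It was also the highest with immunoglobulin genes left out of the totals, at 158.9 CPM in plasma cell-like cells, against 104.6 CPM in B cell-like cells; with them in, the plasma cell-like median was 92.5 CPM. Plasmacytoid dendritic cell-like cells followed at 76.1 CPM with a range from 59.0 to 121 CPM, so the first 3 classes in the order overlapped. Conventional dendritic cell-like cells came next at 38.3 CPM, with a highest set of 49.8 CPM that was below every plasmacytoid value.

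Pou2af1, the octamer coactivator, was the gene that B and plasma cell-like cells shared. It was at 139, 326.5, 271 and 309 CPM in plasma cell-like cells, against 104, 291, 251 and 202 CPM in B cell-like cells in sets 1 to 4. Plasma cell-like cells were higher in 4 of 4 sets, by less than 2-fold, with a median log2 ratio of 0.27 and a range from 0.11 to 0.59. The classes together held most of the transcript, 39.4% of its UMIs in plasma cell-like and 48.3% in B cell-like cells. Plasmacytoid dendritic cell-like cells had 6.51 CPM and conventional ones 3.45 CPM. At an even depth of 500 UMIs per cell, 0.340% of plasmacytoid cells had a Pou2af1 UMI, against 0.364% of hepatocyte-like cells, which is no more than background.

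**Figure D2:**
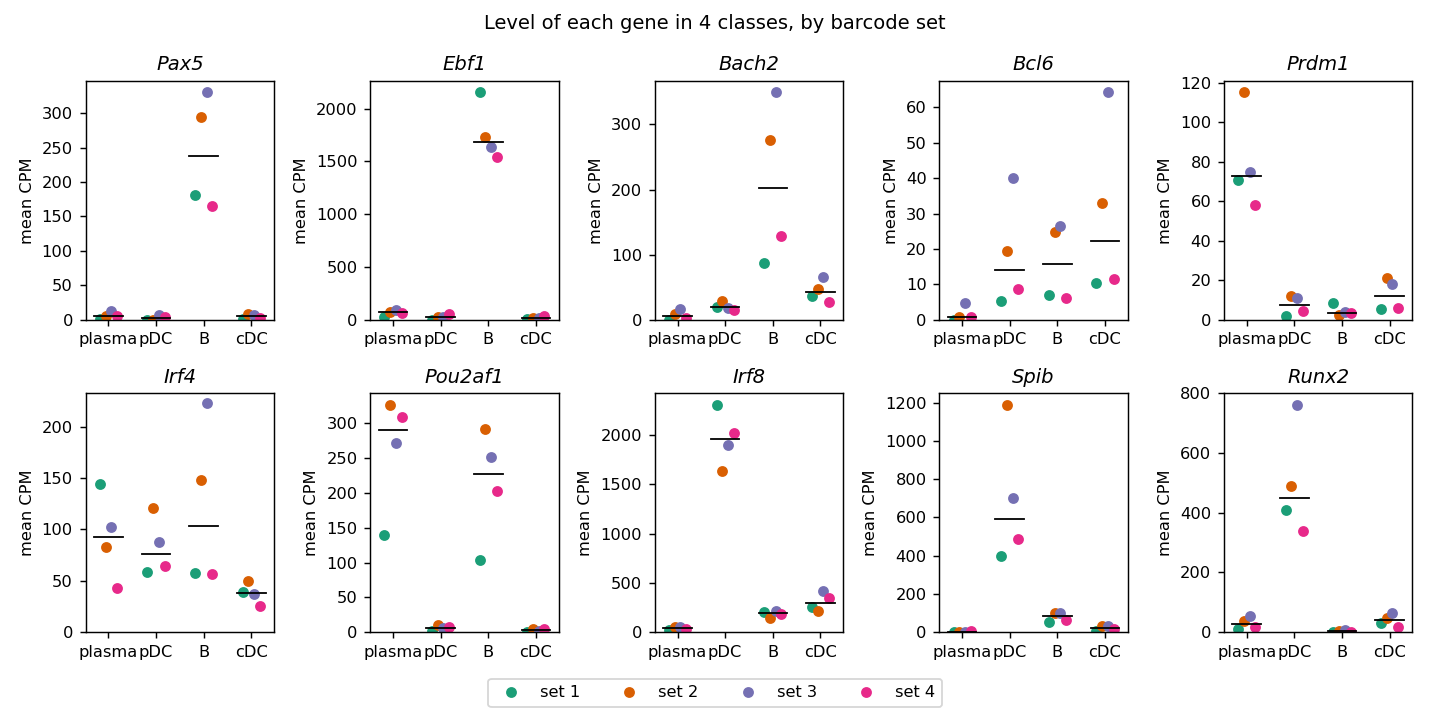
Mean CPM of each gene in plasma, plasmacytoid dendritic (pDC), B and conventional dendritic (cDC) cell-like cells; points are the 4 barcode sets and lines are their medians, with a separate linear axis from 0 for each gene. Irf4 overlaps between plasma, pDC and B cell-like cells, whereas Irf8, Spib and Runx2 do not overlap between pDC and the other classes shown.

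Of the 8 genes past the filter, 1 was called higher and 5 lower in plasma cell-like than in B cell-like cells: Prdm1 against Pax5, Ebf1, Bach2, Irf8 and Spib. Over all 3976 genes tested, 2.89% were called higher and 19.8% lower, and the median of all genes was -0.81. With that median set to 0 in each set, 310 genes were called higher and 167 lower. Much of each plasma cell's RNA encodes antibodies: 110 immunoglobulin genes took 37.9% to 57.2% of the UMIs of plasma cell-like cells, against 1.51% to 2.18% in B cell-like cells. With those genes taken out of the totals, a setting chosen after the data were seen, the median of all genes was -0.17. The calls of Pax5, Ebf1, Bach2, Spib and Prdm1 were the same, Irf8 at -1.17 was no longer called, and Runx2 was called higher at 2.08, as it was without set 1, at 1.76. In the main setting Runx2 was under the filter, and set 1, at 0.98, was the set short of 2-fold. With a filter of 100 CPM, Prdm1 and Spib were too low to be tested, with log2 ratios as given, and with a pseudocount of 50 CPM or at a clustering resolution of 0.5 Irf8 was not called. With immunoglobulin genes left out of the totals, Pou2af1 was at 303, 535, 498.5 and 521 CPM in plasma cell-like cells. B cell-like cells had 106, 296, 257 and 205 CPM in that setting. The median log2 ratio of Pou2af1 was then 1.11, with a range from 0.83 to 1.43. Irf4 in the same setting was still of mixed sign, with a range from -0.26 to 1.85. Plasma cell-like cells were also deeper, with a median of 5085 UMIs against 1164.5 in B cell-like cells. The 11 B cell markers summed to 1074 to 2472 CPM in plasma cell-like cells, against 5246 to 9037 CPM in B cell-like cells, and 446 to 1425 CPM in hepatocyte-like cells; their part in the plasma values was not tested. Restricting the cells to those that also took the same class cell by cell kept 2647 of 6762 B cell-like cells, and 397 of 1905 in set 2. It kept 590 of 763 plasma, 902 of 978 plasmacytoid and 323 of 1167 conventional dendritic cell-like cells. In these cells the calls of the 10 genes were as before in this comparison and in both comparisons of plasmacytoid cells.

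Levels of several genes differed between B cell-like cells of different sets. Irf4 and Bach2 were higher in sets 2 and 3, where B cell-like cells had medians of 571 and 549 UMIs, than in sets 1 and 4, with 2195.5 and 1485 UMIs. In B cell-like cells with at least 500 genes, which left 185 and 80 cells in sets 2 and 3, Irf4 stayed at 215 and 229 CPM, against 54.6 and 58.7 CPM in sets 1 and 4. Bach2 in those cells was at 97.0 and 107.5 CPM in sets 2 and 3, close to the 86.9 and 126 CPM of sets 1 and 4. Which mice the sets came from is not given, so these differences are values of the sets and of no group.

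Irf8 was the most abundant gene of the plasmacytoid group and was high in every set of that class. This interferon regulatory factor is needed for type 1 conventional dendritic cells and keeps plasmacytoid cells in their state. It was at 2309, 1637, 1903 and 2018 CPM in plasmacytoid dendritic cell-like cells, against 255, 220, 416 and 342 CPM in conventional dendritic cell-like cells in sets 1 to 4. The classes did not overlap, with a median log2 ratio of 2.68 and a range from 2.17 to 3.13. NK cell/ILC1-like cells came second among all classes at 994 CPM with a range from 799 to 1269 CPM, below every plasmacytoid value and above every value of the third class, conventional dendritic cell-like cells. Kupffer cell-like cells at 231 CPM, B cell-like cells at 195 CPM, monocyte/macrophage-like cells at 173.5 CPM and endothelial cell-like cells at 172 CPM came next, and the ranges of the last 3 overlapped. Plasma cell-like cells, at 43.0 CPM, were below these classes in every set.

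Spib, an Ets factor related to PU.1, was highest in plasmacytoid cells, with B cells second among the classes when conventional dendritic cells were taken as 1 class; mature dendritic cells, given apart below, were above B cells in sets 2 and 3. It was at 400.1, 1190, 702 and 487 CPM in plasmacytoid dendritic cell-like cells, against 4.40, 33.7, 32.3 and 15.6 CPM in conventional dendritic cell-like cells. The log2 ratio was 4.53 at the median with a range from 4.07 to 4.83. B cell-like cells had 52.8, 102, 102 and 66.0 CPM in sets 1 to 4, above conventional dendritic and plasma cell-like cells in every set. Plasma cell-like cells had 3.08 CPM, and at 500 UMIs per cell 0.160% of them had a Spib UMI, against 0.409% of hepatocyte-like cells. Plasmacytoid cells held 59.7% of Spib UMIs and B cell-like cells 25.8%.

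Runx2, a Runt factor known for bone formation and for the release of plasmacytoid cells from bone marrow, was not above the background in B cell-like cells. It was at 408, 490.4, 762 and 338.5 CPM in plasmacytoid dendritic cell-like cells, against 30.4, 48.7, 63.3 and 18.5 CPM in conventional dendritic cell-like cells. The median log2 ratio was 3.38 with a range from 3.09 to 3.61. B cell-like cells had 21 Runx2 UMIs in 6762 cells, and at 500 UMIs per cell 0.155% of them had one, against 0.241% of hepatocyte-like cells. Plasmacytoid cells held 54.6% of its UMIs. Basophil/mast cell-like cells came second at 96.5 CPM, but this rests on 13 UMIs in 139 cells and ranged from 25.5 to 308 CPM. T cell-like cells followed with 42.1 CPM and a range from 28.6 to 49.6 CPM. Plasma cell-like cells had 9.68, 38.7, 55.1 and 18.1 CPM, above the 0, 4.40, 7.07 and 1.49 CPM of B cell-like cells in 4 of 4 sets.

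Of the 7 genes past the filter between plasmacytoid and conventional dendritic cell-like cells, 3 were called higher and 0 lower, against 7.51% higher and 4.83% lower of all 5030 genes tested. Those 3 were Irf8, Spib and Runx2. Irf4 was at 59.0, 121, 87.9 and 64.4 CPM in plasmacytoid cells, against 39.5, 49.8, 37.0 and 25.4 CPM in conventional cells. It was higher in 4 of 4 sets but missed 2-fold in set 1 only. Because a call needs 2-fold in every set used, leaving out that set makes the call and adds no evidence. Bach2 was lower in 4 of 4 sets, with a median log2 ratio of -0.64, and was not called. Set against B cell-like cells, plasmacytoid cells had 3 genes called higher and 4 lower of the 8 past the filter, where 10.1% of 5149 genes were called higher and 3.42% lower, with a median of all genes of 0.20. Irf8 at 3.41, Spib at 2.71 and Runx2 at 5.25 were higher, and Pax5 at -4.27, Ebf1 at -5.50, Bach2 at -2.69 and Pou2af1 at -3.79 were lower on the log2 scale. Bach2 lost its call with a pseudocount of 50 CPM, at a median of -1.76 and a set nearest 0 at -0.97. Irf4, with a median log2 ratio of -0.12, was not called. Both comparisons use the same plasmacytoid cells.

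**Figure D3:**
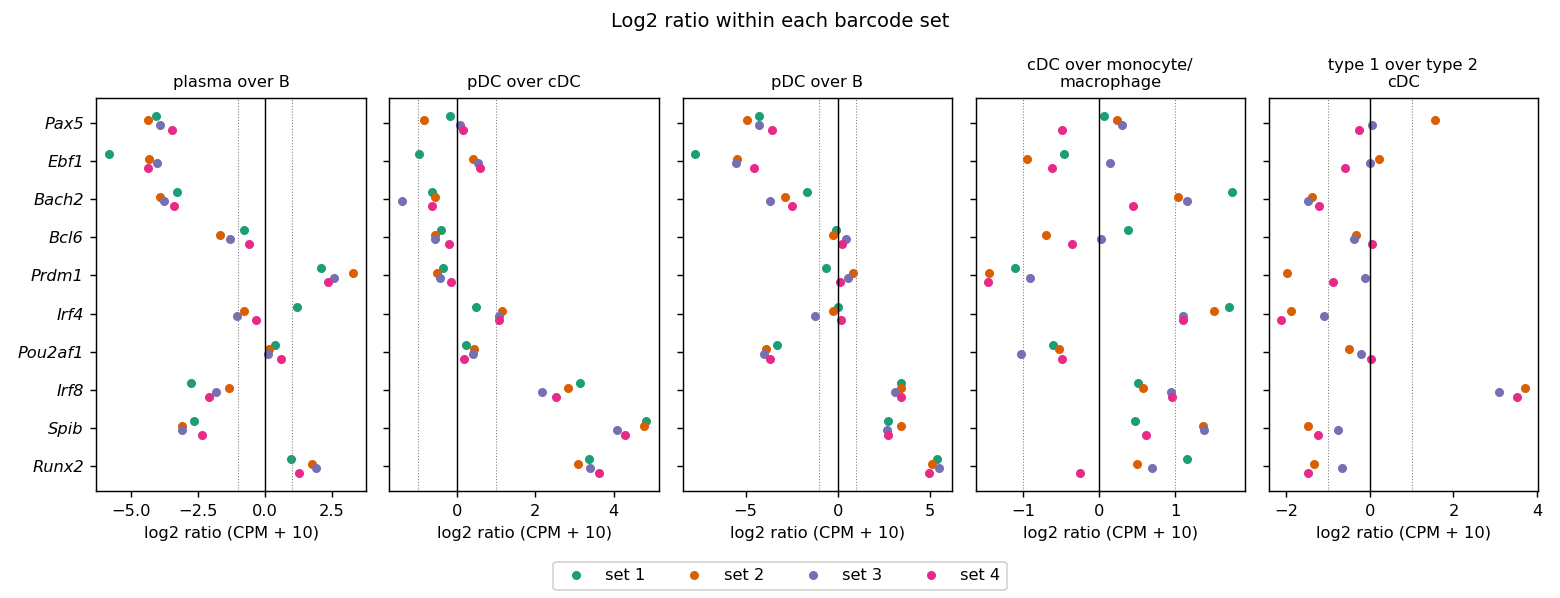
Log2 ratio of CPM plus 10 for each gene in 5 pairs of classes, first-named class over second; points are barcode sets, the solid line is 0 and dotted lines mark 2-fold. Prdm1 lies past 2-fold to the right in plasma over B cell-like cells, and Irf8, Spib and Runx2 do so in both comparisons of plasmacytoid cells.

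Detection of the plasmacytoid genes in the same cells followed their levels. Of 978 plasmacytoid cells, 878 had an Irf8 UMI, 657 a Spib UMI and 585 a Runx2 UMI. Irf8 and Spib were found together in 601 cells, Irf8 and Runx2 in 546, and Spib and Runx2 in 411. In plasma cell-like cells, 229 of 763 had a Prdm1 UMI, 218 an Irf4 UMI and 489 a Pou2af1 UMI. Prdm1 and Irf4 were found together in 79 cells, and Prdm1 and Pax5 in 9. In B cell-like cells 1160 of the 1416 cells with Pax5 also had Ebf1. These counts depend on depth and are a description.

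Between type 1 and type 2 conventional dendritic cells, Irf8 and Irf4 differed in opposite directions, though neither was confined to its subset, as values of the other groups below show. Type 1 cells, which cross-present antigen, had Irf8 at 575, 874 and 1161 CPM in sets 2, 3 and 4, against 34.5, 94.6 and 91.6 CPM in type 2 cells. Set 1 held 19 type 1 cells and gave no level. The median log2 ratio of type 1 over type 2 was 3.53, with a range from 3.08 to 3.72. Irf4 was at 11.6, 10.5 and 0 CPM in type 1 cells, against 69.5, 34.0 and 33.6 CPM in type 2 cells, a median log2 ratio of -1.88 with a range from -2.13 to -1.10. The type 1 values of Irf4 rest on 5 UMIs in 277 cells of all sets. Summed over those cells this is 4.515 CPM, with an interval from 1.47 to 10.5 CPM. That interval is for the sum and not for the means per set. Bach2 was lower too, at 17.4, 24.7 and 10.1 CPM in type 1 cells, against 61.4, 86.8 and 36.5 CPM in type 2 cells.

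Of the 5 genes past the filter in that pair, 1 was called higher and 2 lower, against 1.42% higher and 2.97% lower of 4518 genes. Without set 2, Irf4 kept a log2 ratio of -1.61 with a range from -2.13 to -1.10 but fell under the filter on low values, so that it was no longer tested. Bach2 lost its call in cells with at least 500 genes, where its median log2 ratio was -0.95. With a pseudocount of 50 CPM neither was called, at -0.74 for Irf4 and -0.73 for Bach2, and both are too low for a filter of 100 CPM. Runx2, at -1.33, was not called because it missed 2-fold in set 3, at -0.67. Without that set it was called lower, which follows from the rule and adds no evidence. Mature dendritic cells, which carry antigen to lymph nodes, had Irf8 at 334, 743 and 497 CPM in sets 2 to 4. They had Spib at 182, 184.5 and 52.9 CPM, against 0, 7.19 and 0 CPM in type 1 cells and 18.1, 19.1 and 13.6 CPM in type 2 cells, on 23 UMIs in 95 mature cells. Bach2 was not found in mature cells, where 0 UMIs allow up to 9.35 CPM (3 counts).

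A group of 46 dendritic cells was left without a name. Its leading genes among dendritic cells were Ly6c2, Cd209d, Cd209e and Tcf4. Of these, Ly6c2, Cd209d and Tcf4 are on the plasmacytoid list, and Ly6c2 is also on the monocyte/macrophage list. Cd209a, of the type 2 list, and Flt3, of the conventional dendritic list, were among those that led it against other classes. The plasmacytoid markers Siglech, Ccr9, Klk1, Cox6a2 and Bst2 were not among its leading genes either way. By mean log2 fold of the marker lists, the group scored 1.33 for type 2 and 0.68 for plasmacytoid dendritic cells. It had Runx2 at 341 CPM on 25 UMIs, Irf8 at 455 CPM, Bach2 at 135 CPM, Spib at 108 CPM and Irf4 at 99.3 CPM over all its cells. In type 2 cells Runx2 had a median of 42.1 CPM. A total of 34 of the 46 cells came from set 3 and 12 from set 2. The other unnamed group, 56 cells led by Cxcl9, Gbp2 and Cxcl10, had Irf8 at 544 CPM, Irf4 at 60.0 CPM on 7 UMIs and Runx2 at 19.6 CPM. Of its cells, 50 came from set 3.

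**Figure D4:**
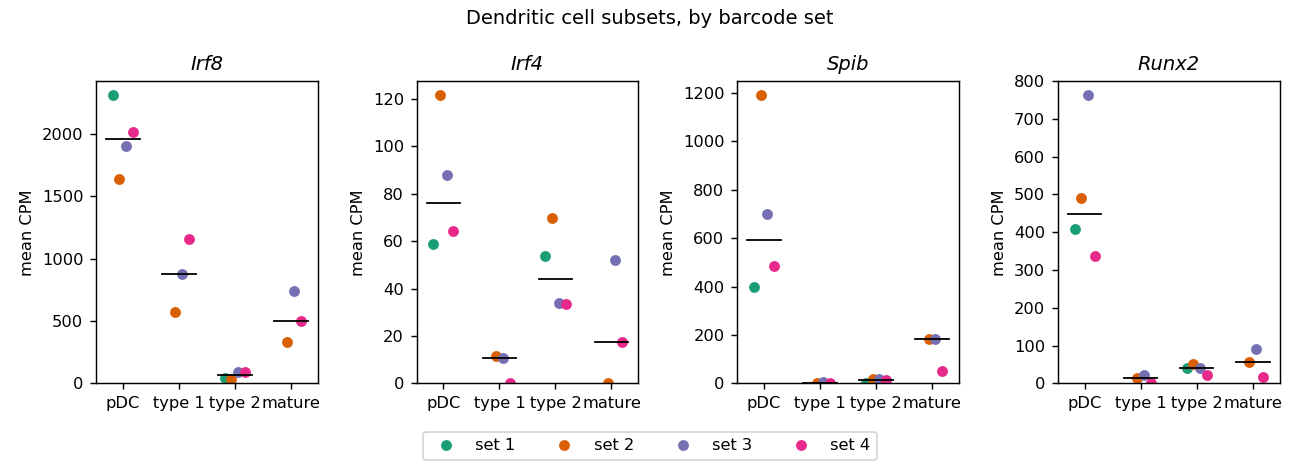
Mean CPM of Irf8, Irf4, Spib and Runx2 in plasmacytoid (pDC), type 1, type 2 and mature dendritic cell-like cells; points are barcode sets with at least 20 cells of the subset and lines are their medians. Irf8 is lowest and Irf4 is above type 1 in the type 2 cells, and Spib in mature cells lies between the plasmacytoid level and those of type 1 and type 2 cells.

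Conventional dendritic cell-like cells were also set against monocyte/macrophage-like cells, the nearest myeloid class. Irf4 was called higher, at 39.5, 49.8, 37.0 and 25.4 CPM in conventional dendritic cells, against 5.12, 11.04, 11.9 and 6.59 CPM in monocytes and macrophages. It was the only call among 7 genes past the filter, where 1.64% of 4750 genes were called higher and 4.72% lower. The median log2 ratio was 1.30 with a range from 1.10 to 1.71, and the call was lost when UMIs were summed over the class, at 1.12 with a lowest set of 0.94, with a pseudocount of 50 CPM, at 0.60, and with cells classed cell by cell, at 0.70, or of the same class both ways, with a lowest set of 0.84. A filter of 100 CPM left it untested. Prdm1 was lower in 4 of 4 sets, with a median log2 ratio of -1.27, and missed 2-fold in set 3 only. Bach2, at 1.09, missed 2-fold in set 4 only, at 0.44. Each was called without the set it missed, which follows from the rule and adds no evidence. Irf8 was higher in 4 of 4 sets at 0.76 and was not called. The median of all genes was -0.13.

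The other genes of these programmes were counted from fixed lists, many of whose members also served as class markers or in clustering, so that their direction is a description of the classes. Of 17 B cell identity genes downstream of Pax5 and Ebf1, 9 are class markers. In plasma over B cell-like cells 15 of the 17 were called lower and 0 higher. The list median was -2.80 beside -0.81 for all genes, of which 19.8% were called lower and 2.89% higher. Ms4a1, which encodes CD20, was at 20.2 CPM in plasma cell-like and 757 CPM in B cell-like cells, and Cd79a, a signal chain of the B cell receptor, was at 445 and 2120 CPM in the same order. All 8 antigen presentation genes were called lower, with a median of -2.97, among them Cd74, the invariant chain, at 2759 CPM in plasma cell-like and 14690 CPM in B cell-like cells.

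Of 20 plasma cell secretory genes, 9 are class markers. In plasma cell-like cells 19 of the 20 were called higher, with a median of 3.0. Hsp90b1, an endoplasmic reticulum chaperone, was at 3187 CPM in plasma cell-like and 483 CPM in B cell-like cells. Of 40 further transcription factors of these lineages, 27 were tested and 1 was called higher and 11 lower, with a median of -1.28 beside -0.81 for all genes, of which 2.89% were called higher and 19.8% lower. The 1 higher was Xbp1, the factor of the secretory stress response, at 1203 CPM in plasma cell-like and 72.7 CPM in B cell-like cells. Of the 40 factors, 5 are class markers, and the direction of a marker in its own class follows from the naming. Xbp1 is on the plasma cell marker list, so its direction here follows from the naming. Foxp1, a forkhead factor of mature B cells, was at 48.1 and 580 CPM, and Ets1, a factor known to restrain plasma cell differentiation, at 94.5 and 808 CPM in the same order.

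In plasmacytoid over conventional dendritic cell-like cells, 15 of the 16 plasmacytoid genes were tested and all 15 were called higher, with a median of 3.83 beside 0.28 for all genes. Of these 16 genes, 10 are class markers. Bst2, a surface marker of these cells, was at 3294 CPM in plasmacytoid and 322 CPM in conventional cells. Tcf4, the E protein that specifies plasmacytoid cells, was at 1555 CPM in plasmacytoid and 116 CPM in conventional cells. Bst2 and Tcf4 are on the plasmacytoid marker list, so their direction follows from the naming. Mef2c and Xbp1 were called higher as well, and of the 30 transcription factors tested 6 were higher and 5 lower, with a median of 0.37, where 7.51% and 4.83% of all genes were called. Of 8 tested B cell identity genes 4 were called higher and 0 lower, among them Blnk, the adaptor of B cell receptor signalling, at 474 CPM in plasmacytoid and 11.2 CPM in conventional cells. Fcrla, an Fc receptor-like protein, was at 224 and 16.5 CPM in the same order. Of 15 tested secretory genes 5 were higher and 1 lower, with Mzb1, a chaperone of immunoglobulin assembly, at 192 CPM in plasmacytoid and 6.80 CPM in conventional cells. Of the 8 antigen presentation genes 5 were lower, with a median of -1.78.

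Set against B cell-like cells, plasmacytoid cells had 8 of 14 tested secretory genes called higher, including Sec61b, a subunit of the translocation channel, at 1685 CPM in plasmacytoid and 340.0 CPM in B cell-like cells. They had 13 of 17 B cell identity genes lower and 1 higher, with Cd79a at 25.1 CPM in plasmacytoid and 2120 CPM in B cell-like cells. Of 30 tested transcription factors 9 were higher and 4 lower, with a median of -0.01 beside 0.20 for all genes, of which 10.1% were higher and 3.42% lower. In conventional dendritic over monocyte/macrophage-like cells, 29 of the transcription factors were tested, with 1 higher and 2 lower, where 1.64% and 4.72% of all genes were called, and a list median of -0.14 beside -0.13: Bcl11a was at 57.3 CPM in conventional dendritic and 7.01 CPM in monocyte/macrophage-like cells, and Zeb2 at 81.2 and 377 CPM in the same order. In type 1 over type 2 cells 2 of 31 were lower, Pou2f2 at 29.0 CPM in type 1 and 111 CPM in type 2 cells and Zeb2 at 23.4 and 115 CPM, and 0 were higher, where 2.97% of all genes were lower and 1.42% higher. Counts this small are near those shares and are no result about the list.

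Genes with the most similar pattern were ranked by Pearson r of log2(CPM + 10) over 57 points, each a class in a set, among 10615 genes. The points share libraries and depth, and r is given as a description. For Pax5 they were Cacna1i at 0.874, Ms4a1 at 0.862 and Fcer2a at 0.848, and for Ebf1 Ighd at 0.883, Ms4a1 at 0.879 and Fcmr at 0.865. For Pou2af1 they were Vpreb3 at 0.823, Iglc2 at 0.812 and Cd79a at 0.779. Irf4 ranked with Tnfrsf13b at 0.773, Slamf6 at 0.769 and Ighm at 0.765. For Spib they were Bcl11a at 0.852, Lrp8 at 0.817 and Phc1 at 0.814, for Irf8 Scimp at 0.811, Tmem173 at 0.770 and Cd72 at 0.751, and for Runx2 Lag3 and Rps6ka1 at 0.798 and Slc25a53 at 0.756. Prdm1 had the weakest likeness of the 10, with Edem1 at 0.716, Gm26917 at 0.682 and Ncapg2 at 0.651. Bach2 ranked with Arhgef18 at 0.769, Nap1l1 at 0.742 and Rps20 at 0.736, and Bcl6 with Ids at 0.791, Pacs2 at 0.766 and Atp7a at 0.760. Among the 10 genes themselves the highest r were 0.77 for Pax5 and Ebf1, 0.70 for Ebf1 and Pou2af1 and 0.65 for Pax5 and Pou2af1.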

How the data were processed

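Single-cell RNA was measured in 4 liver tumour samples, 2 for each genotype. Per the submitters' processing notes, the tools were CASAVA 1.8, Cell Ranger and Seurat, and the genome build was mm10; their other versions and filters were not stated. The authors deposited 1 table of natural log values, ln(1 + UMIs per 10000 UMIs of the cell). UMIs were recovered from it: 100% of values were whole multiples of 1 UMI within a tolerance of 0.001. The table does not map cells to samples, so the planned limma comparison of the genotypes was not run. The fewest genes in a cell were 201.

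The 10 genes, the lists and the markers were chosen with earlier results of these data known. Cells were clustered in scanpy 1.11.5 without the 10 genes (2000 variable genes, 30 components, 15 neighbours, Leiden resolution 1.0 by igraph 0.11.9, seed 1, no batch integration), giving 27 clusters. A cluster took the name of the marker list, of 20, with the best mean log2 fold (at least 1, and 0.5 above the next), with a marker among its leading 10 genes and at least 3 markers up; this rule and the division of dendritic cells (1000 variable genes, 20 components, resolution 0.5) were set after the data were seen. Of the cells, 393 stayed unnamed. No doublet caller was run.

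Calls used a pseudocount of 10 CPM, a filter of 20 CPM and a 2-fold limit in every set, where both classes had at least 20 cells. This call was also run on simulated counts with counting error only and a common profile for all sets. That run cannot speak to false calls from differences between sets, cells or immunoglobulin content. Intervals are exact Poisson intervals; the share of cells with a UMI at 500 UMIs is the exact expectation, leaving out shallower cells. Named from each list and pair were up to 3 called genes of the highest mean level, and for each of the 10 genes the 3 with the highest r; leading genes of unnamed groups were chosen after their values were seen. Promoter windows come from RefSeq (GRCm38.p6), and gene positions from GENCODE on the same build. Alternatives are given in the closing section.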

Additional observations from a re-analysis of the deposited data

How the results depend on the processing

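Called genes were recounted under each alternative, given here as higher then lower. A pseudocount of 50 CPM gave 65 and 237 in plasma over B cell-like cells, 156 and 107 in plasmacytoid over conventional dendritic, 225 and 73 in plasmacytoid over B, 30 and 102 in conventional dendritic over monocyte/macrophage-like, and 28 and 60 in type 1 over type 2 cells. A filter of 100 CPM gave 57 and 235, 147 and 88, 218 and 70, 24 and 112, and 23 and 53 in the same order. In plasma over B cell-like cells, setting the median of all genes to 0 gave 310 and 167, and leaving immunoglobulin genes out of the totals gave 322 and 312. Keeping only cells of the same class by cluster and cell by cell gave 120 higher genes in conventional dendritic over monocyte/macrophage-like cells. Those last alternatives, without immunoglobulin genes and with the same class both ways, were chosen after the data were seen. In type 1 over type 2 cells, leaving out a set gave 88 to 105 higher and 182 to 214 lower genes, the most lower without set 2 and the most higher without set 4. The main counts were 64 and 134. A call needs 2-fold in every set used, so leaving out a set relaxes the rule and a rise is built in. Why the counts differed with the set left out was not tested. In all, 150 recounts were within 1.5 times the main count and 27 were not. None of the 10 genes reversed a call in these alternatives. Irf8 in plasma over B cell-like cells lost its call with a pseudocount of 50, at resolution 0.5, with the 10 genes kept for clustering and with the median at 0, where its log2 ratio was -1.19. With a pseudocount of 50 CPM, Bach2 in plasmacytoid over B cell-like cells (-1.76) and Irf4 and Bach2 in type 1 over type 2 cells (-0.74 and -0.73) lost theirs. A filter of 100 CPM left untested, with unchanged ratios, Prdm1 and Spib in plasma over B, Irf4 in conventional dendritic over monocyte/macrophage-like, and Irf4 and Bach2 in type 1 over type 2 cells. Of the 10 genes' own ratios, 717 were within 1 SD over sets of the main value and 103 were not. By the share of cells with a UMI at 500 UMIs, Bcl6 was highest in conventional dendritic cell-like cells, at 1.84%, with monocyte/macrophage-like cells at 1.42%. Classing cell by cell called 7858 cells hepatocyte-like, against 1161 by cluster, and gave too few cells for type 1 over type 2, as did cells of the same class both ways. No paired analysis was possible because cells could not be mapped to samples, so the genotypes were not compared; the ratios between classes are each taken within a barcode set. Levels under 10 CPM in classes of under 1000 cells rest on few UMIs.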
